A study of Mus musculus with 12 samples.

Results

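The 10 genes described here encode products of connective tissue, muscle and vessel walls: the fibrillar collagen chains Col1a1, Col1a2 and Col3a1, the collagen-binding protein Sparc, the mesenchymal filament protein vimentin (Vim), the matrix protein fibronectin (Fn1), the muscle proteins Acta2, Myh11 and Des, and the endothelial adhesion molecule Pecam1. They were chosen by symbol, as genes used to mark fibroblasts, smooth muscle and endothelium, and all 10 were found among the 23420 genes of each count table. Total RNA was sequenced in 12 libraries of WT mouse colon (age 6 to 10 weeks, strain and sex not stated in the labels), 3 of isolated crypts and 3 each of confluent colonic monolayers at day 3, day 4 and day 5. Per the labels, crypt cells first grew as monolayers on collagen and were then moved onto scaffolds with a gradient of cross-linking, on which they joined into a continuous sheet. Resistance across the sheet, in ohm cm2, is labelled 526 ± 56 for day 3, 623 ± 15 for day 4 and 407 ± 53 for day 5, with no name for the error. The 4 groups share the WT genotype, and the labels speak of crypts from a single mouse without saying whether the 3 libraries of a group were separate mice or cultures. The p-values therefore measure only the spread between these libraries, which may be technical.

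Fibroblasts of the colonic lamina propria secrete type I and type III collagen, whose chains are trimmed, hydroxylated and cross-linked into fibrils, and Sparc binds these fibrils. Fibronectin is a matrix glycoprotein that cells assemble into fibres by pulling on it through integrins, and both fibroblasts and epithelial cells in culture can make it. Acta2, Myh11 and Des belong to contractile cells, while Pecam1 lies at the contacts between endothelial cells and is also carried by leukocytes and platelets.

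The promoter sequences of 6 of the 10 genes were found in a RefSeq table for GRCm38.p6, and 4 are shown because their genes give the contrasts described below: collagen chains and Vim that were near 0 in monolayers, and Acta2, which had counts there and none in crypts. Each line holds the 250 bases before the transcript start, 5′ to 3′ on the gene's strand.
Col1a2, chr6:4505368-4505617 on the plus strand: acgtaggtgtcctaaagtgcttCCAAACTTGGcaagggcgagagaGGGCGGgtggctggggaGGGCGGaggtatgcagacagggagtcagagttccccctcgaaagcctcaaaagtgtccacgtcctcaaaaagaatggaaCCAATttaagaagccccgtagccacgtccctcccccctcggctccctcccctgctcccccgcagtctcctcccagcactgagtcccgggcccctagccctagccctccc
Col3a1, chr1:45311288-45311537 on the plus strand: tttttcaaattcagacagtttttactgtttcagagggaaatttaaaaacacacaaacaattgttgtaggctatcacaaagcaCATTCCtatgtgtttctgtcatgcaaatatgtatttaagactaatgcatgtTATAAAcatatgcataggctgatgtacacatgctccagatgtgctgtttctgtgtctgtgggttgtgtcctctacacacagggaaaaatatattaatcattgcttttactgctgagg
Vim, chr2:13574061-13574310 on the plus strand: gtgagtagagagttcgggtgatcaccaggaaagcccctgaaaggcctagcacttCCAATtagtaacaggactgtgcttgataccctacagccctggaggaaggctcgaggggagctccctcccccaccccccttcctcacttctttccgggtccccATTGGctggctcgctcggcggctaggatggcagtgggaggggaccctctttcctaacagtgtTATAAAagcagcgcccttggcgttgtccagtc
Acta2, chr19:34255374-34255623 on the minus strand: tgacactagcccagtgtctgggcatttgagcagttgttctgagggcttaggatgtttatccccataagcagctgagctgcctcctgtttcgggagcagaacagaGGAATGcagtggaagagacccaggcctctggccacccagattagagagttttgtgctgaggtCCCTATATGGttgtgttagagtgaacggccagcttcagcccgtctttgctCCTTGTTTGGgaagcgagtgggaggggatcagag
Capitals mark matches on either strand to 5 short motifs and to the CArG box, the element that serum response factor binds, which was searched as such and with 1 substitution in its core. No marked match overlaps another. Over the 32851 promoter windows of this length in the table, the TATA box, searched as TATAAA, was in 12.4%. The CCAAT box was in 33.8% of windows. The GC box, searched as GGGCGG, was in 32.7% of windows. An AP-1 site, searched as TGANTCA, was in 6.75%, and a TEAD site, which was searched as GGAATG, was in 12.6%. A CArG box was in 1.47% of windows and a CArG box with 1 substitution in 7.24%. Acta2 held such a substituted CArG box at bases -84 to -75 and at -34 to -25 from its start and a TEAD match at -146 to -141. In Vim the TATA box stood at -32 to -27, and CCAAT matches at -196 to -192 and -94 to -90. Col1a2 held a substituted CArG box at -228 to -219, GC boxes at -205 to -200 and -188 to -183, and a CCAAT match at -109 to -105. Col3a1 held a TEAD match at -168 to -163 and a TATA box at -117 to -112. These matches describe letters only, and no binding was measured.

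In the count data the 10 genes split. Levels are CPM, the counts scaled to library size with TMM factors, with 4518314 to 14290393 counts in genes per library, so that 3 counts correspond to 0.210 to 0.664 CPM before TMM scaling. Fn1 was 41.8-fold higher in monolayers than in crypts, Acta2 appeared mainly at day 5, and the collagens, Sparc, Vim and Pecam1 were 21.3-fold to 1335-fold lower when libraries were pooled. Only 5 of the 10 genes (Col3a1, Fn1, Myh11, Pecam1 and Vim) passed the filter on low counts and were tested with edgeR. Of these 5, Fn1 was called higher and Col3a1, Pecam1 and Vim lower in monolayers against crypts, where 63.5% of all 12863 genes tested were called (30.7% higher, 32.8% lower, median log2 change -0.0258). The same 4 genes were called, in the same directions, at day 3 (56.3% of all genes called), day 4 (57.1%) and day 5 (57.3%). Col3a1, Pecam1 and Vim passed the filter only because of the crypts, which fixes the direction of their calls. These calls add no support to the counts, and their number says nothing about the 10 genes as a set. The comparisons with crypts share the same 3 crypt libraries. The share of counted reads that lay in genes also separated the groups, at 31.7 to 35.6% in crypts and 41.8 to 43.5% in monolayers, and its part in these results was not tested.

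**Figure D1:**
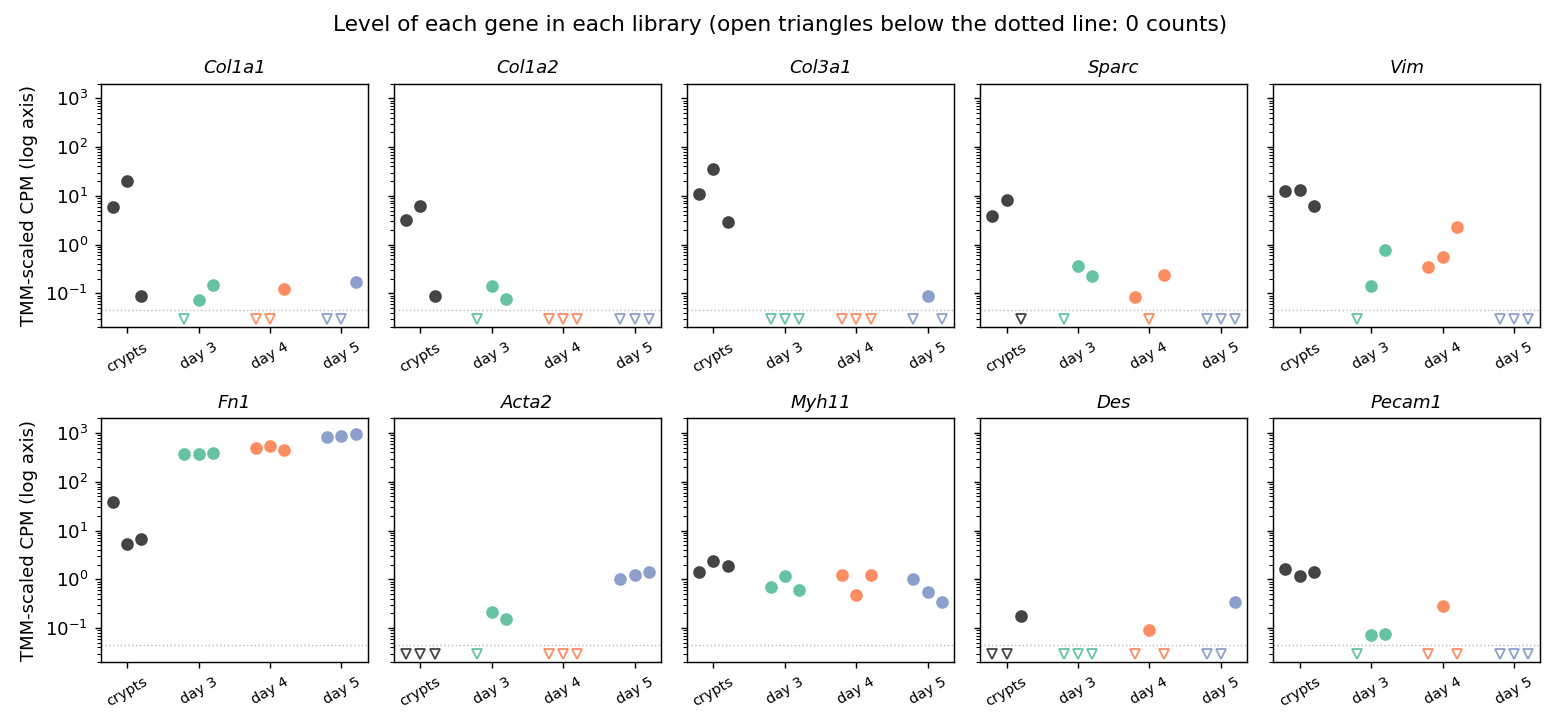
Level of each of the 10 genes in each of the 12 libraries, as TMM-scaled CPM on a log axis, with libraries in replicate order from left to right within crypts, day 3, day 4 and day 5. Filled points are libraries with counts and open triangles below the dotted line are libraries with 0 counts. Fn1 lies between 366 and 951 CPM in every monolayer library, while Col3a1 has 1 count in 1 of the 9.

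The fibrillar collagens were close to absent from monolayers. Col3a1, the chain of type III collagen, had 55, 267 and 32 counts in crypts replicates 1 to 3 (2.88 CPM in replicate 3 to 34.8 in replicate 2), no count in any library of day 3 or day 4, and 1 count in day 5 replicate 2. Every crypt library was above every monolayer library. Pooled Col3a1 was 1335-fold higher in crypts (exact 95% interval 238 to 52869, counting error only), 485-fold without crypts replicate 2, 2277-fold without crypts replicate 3, and at least 390-fold without day 5 replicate 2. Its log2 change was -9.55 ± 0.83 (SE, edgeR adjusted p = 1.14e-07), -8.34 without crypts replicate 2 and -10.2 without day 5 replicate 2. As days without a count enter this mean, its size depends on the prior count of 0.125 in the fit.

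Col1a1, one chain of type I collagen, had 30, 155 and 1 counts in crypts and 5 counts over the 9 monolayer libraries (0, 1 and 2 at day 3, 0, 0 and 1 at both day 4 and day 5). Its partner chain Col1a2 had 16, 48 and 1 counts in crypts and 0, 2 and 1 at day 3, with none at day 4 or day 5. Crypts replicates 1 and 2 stood above all monolayer libraries for both chains, whereas crypts replicate 3 overlapped them. Pooled levels were 140-fold higher in crypts for Col1a1 (59.0 to 437), which became 34.5-fold without crypts replicate 2 and 262-fold without crypts replicate 3. For Col1a2 the ratio was 81.7 (26.7 to 406), 31.6 without crypts replicate 2, 151 without crypts replicate 3 and 207 without day 3 replicate 2. The 2 chains of type I collagen thus had the same lone count in the deepest crypt library, in which Col3a1 still had 32.

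Sparc followed the type I chains, with 19, 63 and 0 counts in crypts, 0, 5 and 3 at day 3, 1, 0 and 2 at day 4 and none at day 5. Crypts replicate 3 again overlapped the monolayers. The pooled ratio was 28.1 (14.9 to 58.5), 9.62 without crypts replicate 2, 52.7 without crypts replicate 3 and 43.5 without day 3 replicate 2. Col1a1, Col1a2 and Sparc reached the minimum count in only 2 crypt libraries and were not in the main test. With the minimum asked of 2 libraries in place of 3, an alternative added after seeing the data, all 3 were called lower in monolayers: by edgeR the log2 changes were -7.09 ± 0.95 (adjusted p = 2.85e-06), -6.97 ± 1.18 (0.00011) and -5.84 ± 1.13 (0.000251), where 63.2% of 13393 genes were called. They were also called lower with this filter at day 3 (55.8% of all genes called), day 4 (56.5%) and day 5 (56.9%). All 3 passed this filter through crypts alone, which fixes the direction of these calls, so the calls add no support to the counts.

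The crypt libraries differed among themselves in these genes. Col1a1 relative to Col3a1 was 0.545 and 0.581 in crypts replicates 1 and 2 and 0.0313 in replicate 3. The other 18 genes of a list of 21 fibroblast genes summed to 24.6, 50.8 and 14.0 CPM in the same libraries, so replicate 2 was highest and replicate 3 lowest there too. In monolayers these 18 genes summed to 2.94 to 9.25 CPM. A list of 14 leukocyte genes, from cells that lie beside fibroblasts in the lamina propria, had the same order, with 38.8, 48.3 and 21.4 CPM in crypts and 1.51 to 10.9 CPM in monolayers. In bulk RNA, fewer cells of a type and less RNA per cell cannot be told apart, and which cells held these transcripts was not tested.

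Among the fibroblast genes, 6 were tested, of which 5 were called lower in monolayers, none was called higher and 1 was not called. Over all genes tested, 32.8% were called lower and 30.7% higher. The median log2 change of the 6 was -4.88, or -4.85 with the gene at 0 set to its bound. Pdgfra, 1 of the 5, was near the filter's minimum, at 1.28 ± 0.28 CPM in crypts and 0.467 ± 0.968 in monolayers (edgeR adjusted p = 0.0456). Col3a1, Col6a1 and Dcn passed the filter on low counts through crypts alone. The filter thus largely sets the count called lower and the median, and they support nothing about fibroblast genes as a group. In the lists that follow, genes near 0 in one group likewise passed through the other. Dcn, a small proteoglycan of collagen fibrils, had 127 counts in crypts and none in monolayers, a difference of at least 160-fold. Fap, a protease of activated fibroblasts, fell by less, from 3.76 ± 0.81 to 0.862 ± 0.714 CPM (log2 change -2.38, edgeR adjusted p = 0.00124). Fbln1, which encodes the matrix protein fibulin-1, was at 2.19 ± 2.36 CPM in crypts and 3.90 ± 2.39 in monolayers and was not called (adjusted p = 0.501). By day its mean was 6.32 ± 0.72, 4.31 ± 0.45 and 1.07 ± 0.99 CPM, above that of crypts at first and below it at day 5. Among those too low to test, the matrix gene Col6a2 had 78 counts in crypts against 1 in monolayers and the surface marker Thy1 had 37 against 0, whereas Mfap5, of elastic microfibrils, had 0 against 21.

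**Figure D2:**
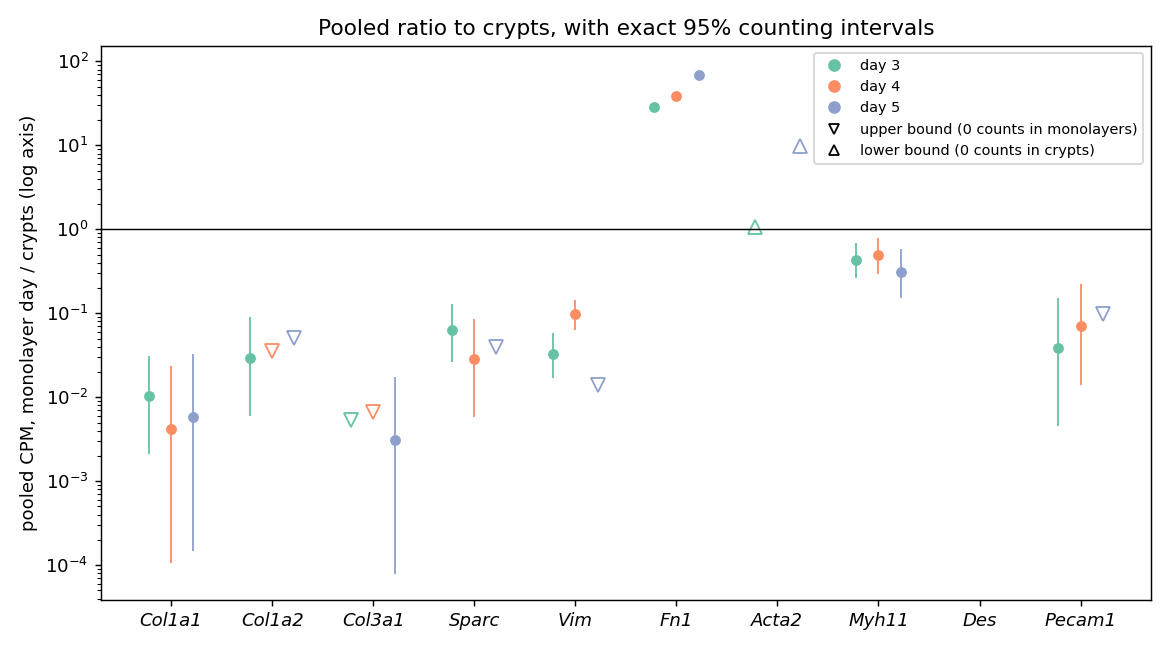
Pooled CPM of each monolayer day divided by that of crypts, for each gene, on a log axis with a line at 1. Points carry exact 95% intervals (counting error only), and triangles are bounds set with 3 counts where a group had none. Acta2 at day 4 and Des have no ratio because both groups held at most 3 counts. Fn1 lies at 28.8, 38.5 and 68.3 while the collagens, Sparc, Vim and Pecam1 lie below 0.1.

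Vim had 62, 102 and 68 counts in crypts (12.4, 13.3 and 6.13 CPM), 0, 2 and 10 at day 3, 4, 6 and 19 at day 4, and none in the 3 libraries of day 5. Unlike the type I chains, it was above all monolayer libraries in all 3 crypt libraries, of which the lowest still had 6.13 CPM against 2.30 in day 4 replicate 3. The pooled ratio was 21.3 (15.3 to 30.5), and 36.1 without day 4 replicate 3. Its log2 change was -6.00 ± 0.72 (edgeR adjusted p = 1.7e-06), a value that depends on the prior count because day 5 had no count. Among monolayers only day 4 replicate 3 reached the filter's minimum, so Vim would not have passed without crypts. This fixes the direction of its calls against crypts, which add no support to the counts. Per kb of exon, Vim had the highest level of the 10 genes in crypts, 2.24 ± 0.82 CPM per kb, followed by Col3a1 (1.65 ± 1.69), Fn1 (1.44 ± 1.59), Col1a1 (1.33 ± 1.57) and Sparc (1.06 ± 1.08). These 5 neighbours did not differ beyond their spread.

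Between monolayer days, Vim was at 0.300 ± 0.402 CPM at day 3, 1.07 ± 1.07 one day later and 0 in the last group. Day 5 was at least 6.92-fold lower than day 4, or 3.27-fold without day 4 replicate 3 and 3.39-fold without day 5 replicate 2. The edgeR call of this fall was narrow (adjusted p = 0.0456), and Vim was the 1 gene of the 5 called between these days, where 7.56% of all genes were. It was lost without any 1 of day 3 replicate 2, day 4 replicates 2 or 3, or day 5 replicates 1, 2 or 3 (adjusted p = 0.0551 to 0.172). Day 4 against day 3 was not called (log2 change 1.66 ± 0.93, adjusted p = 0.478, 0.50 without day 4 replicate 3 and 3.46 without day 3 replicate 3), and neither was day 5 against day 3 (adjusted p = 0.135).

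Regulators of the mesenchymal state gave little to set beside Vim. Of 10 such genes 1 was tested: Tcf4, a transcription factor, was at 33.2 ± 5.26 CPM in crypts and 20.4 ± 4.35 in monolayers (log2 change -0.71, edgeR adjusted p = 0.00133). Snai1, Snai2, Twist1 and Twist2, which drive loss of epithelial character, had no count in crypts, and over the 9 monolayer libraries they had 7, 1, 0 and 0 counts. Cdh2 and Foxc2 likewise had none in crypts and 6 each in monolayers. As the monolayers were deeper in sum, the bounds on monolayers over crypts were 0.619 for Snai1 and 0.530 for Cdh2 and Foxc2. Being under 1, they show no rise. Zeb1 and Zeb2, repressors of epithelial genes, had 7 and 13 counts in crypts against 0 and 1 in monolayers. The pooled ratio for Zeb2 was 49.0 (7.36 to 2083). At 0.564 ± 0.977 CPM in crypts, Zeb2 had all its crypt counts in 1 library, on which this ratio rests. By contrast, every crypt library had Vim counts. Prrx1 had 1 count in crypts and none in monolayers.

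Fn1 moved opposite to the collagens. Its counts were 191, 41 and 76 in crypts, 3700, 5112 and 5059 at day 3, 5647, 5868 and 3750 at day 4, then 4118, 9763 and 5493 at day 5. As CPM these were 38.2, 5.34 and 6.85 in crypts, 369, 366 and 383 at day 3, 486, 548 and 454 at day 4, then 830, 875 and 951 at day 5. None of the 4 groups overlapped another, and each later group was higher. Crypts replicate 1 stood above the other crypts and below every monolayer library. The log2 change in monolayers was 5.22 ± 0.39 (edgeR adjusted p = 1.12e-09), and 6.47 without crypts replicate 1. Pooled, Fn1 was 41.8-fold higher (37.3 to 46.9), or 86.8-fold without that library.

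By day, the Fn1 log2 change against crypts was 4.66 ± 0.40 at day 3, 5.07 ± 0.41 at day 4 and 5.91 ± 0.42 at day 5 (edgeR adjusted p = 1.28e-08, 4.94e-09 and 8.88e-10), and 5.91, 6.33 and 7.16 without crypts replicate 1. From day 3 to day 5 Fn1 rose 2.37-fold (log2 change 1.25 ± 0.32, edgeR adjusted p = 0.00911), and it was the 1 gene of the 5 called there, where 20.4% of all genes were. DESeq2 gave an adjusted p of 0.17 for the same change. The step from day 3 to day 4 was 0.41 ± 0.32 (edgeR adjusted p = 0.651) and that from day 4 to day 5 was 0.84 ± 0.32 (0.125). Both were called where only the libraries of the compared days were fitted (adjusted p = 0.000592 and 2.04e-05). Leaving out crypts replicate 1 also brought both calls (0.00911 and 6.15e-06), and leaving out crypts replicate 2 the later one (0.0317). From day 3 to day 4, none of the 5 tested genes was called by edgeR, none had an unadjusted p under 0.05, and DESeq2 called none, with 2.77% of all genes called by edgeR.

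Set against the other 9 genes summed in the same library, Fn1 was 0.970, 0.0619 and 0.539 times their level in crypts replicates 1 to 3 and 117 to 529 times in the monolayers. It made up 49.2, 5.83 and 35.0% of the summed CPM of the 10 genes in crypts and 99.2 to 99.8% in monolayers. Within crypts Fn1 did not order the libraries as the collagens did: the library with most Fn1 was replicate 1, and replicate 2, with the most Col3a1, had the least, 0.154 Fn1 counts per Col3a1 count against 3.47 and 2.38 in the others. Per kb of exon, Fn1 in monolayers stood at 31.9 ± 0.76 CPM per kb in the earliest group, then 42.5 ± 4.11 and finally 75.8 ± 5.27 at day 5. An opposite-strand gene model, Apol7d, shares exon sequence with Fn1 in GENCODE M21, and without a stated strand setting their reads cannot be told apart.

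**Figure D3:**
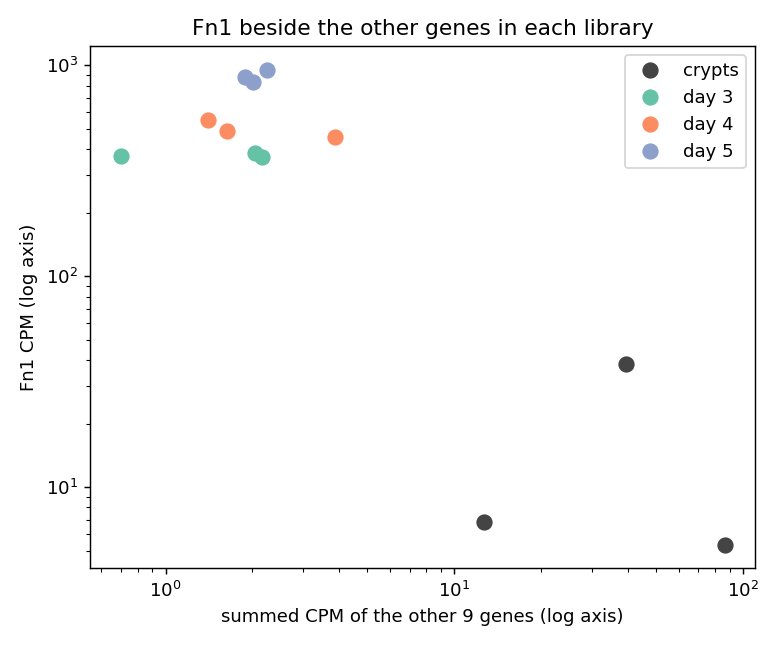
Fn1 CPM against the summed CPM of the other 9 genes in each of the 12 libraries, both on log axes, coloured by group. The 3 crypt libraries lie at the lower right, with 12.7 to 86.2 CPM of the other genes, and the 9 monolayer libraries at the upper left, with 0.699 to 3.87 CPM.

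The integrins and partners through which cells bind and assemble fibronectin were well measured, with 19 of 21 tested. Of these, 10 (52.6%) were called higher in monolayers, 2 (10.5%) lower and 7 were not called. Over all genes tested, 30.7% were called higher and 32.8% lower, 63.5% in either direction. The median log2 change of the list was 0.67 against -0.0258 over all genes tested. Itgav, the alpha V subunit, was at 50.3 ± 6.07 CPM in crypts and 499.7 ± 39.4 in monolayers (log2 change 3.30, edgeR adjusted p = 1.39e-15). Itga5, whose product pairs with that of Itgb1 in the classical fibronectin receptor, was at 14.2 ± 1.73 and 11.8 ± 2.26 CPM and was not called (adjusted p = 0.289). Plaur, the urokinase receptor, rose from 3.89 ± 1.65 to 81.4 ± 22.9 CPM, and Ltbp1, which tethers latent TGF-beta to fibronectin matrix, from 0.204 ± 0.278 to 24.0 ± 6.19 CPM (log2 changes 4.44 and 6.73, edgeR adjusted p = 3.83e-13 and 3.85e-10). Itga4, an integrin subunit prominent on leukocytes, had 127 counts in crypts and none in monolayers, at least 160-fold lower.

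No tested gene for collagen processing was called lower. Of 20 such genes 13 were tested, 7 (53.8%) were called higher and 6 were not called, with a median log2 change of 1.01. Over all genes tested, 63.5% were called (30.7% higher and 32.8% lower). The largest were Loxl4, a lysyl oxidase that cross-links collagen, at 0.0667 ± 0.115 CPM in crypts (1 count in all) and 35.4 ± 6.12 in monolayers, a pooled ratio of 864 (155 to 34149), and Plod2, a lysyl hydroxylase, at 0.364 ± 0.235 and 28.5 ± 4.00 (log2 change 6.33, edgeR adjusted p = 5.59e-13). P4ha2, a subunit of collagen prolyl 4-hydroxylase, rose from 2.66 ± 0.52 to 83.9 ± 12.3 CPM (5.02, 5.43e-15). Pcolce, which aids the trimming of procollagen, rose from 0.350 ± 0.328 to 8.24 ± 1.83 CPM (4.68, 6.84e-07). Serpinh1, the collagen chaperone, was at 0.764 ± 0.526 and 0.960 ± 0.457 CPM and was not called (adjusted p = 0.687). Of the genes too low to test, Loxl3 had 16 counts in crypts and 16 in monolayers. Its pooled ratio of monolayers over crypts was 0.265 (0.124 to 0.566). Adamts2 had 8 and 1 and Loxl1 had 5 and 1, ratios of 0.0332 (0.000747 to 0.247) and 0.0530 (0.00112 to 0.474). For Lox, Leprel1 and Fkbp10 the interval included 1, and P4ha3 had 0 and 6 counts.

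Matricellular proteins, the family of Sparc, went both ways, with 7 of 13 tested genes called higher, 4 lower and 2 not called (median 0.95). The shares were 53.8% higher and 30.8% lower, beside 30.7% and 32.8% over all genes tested. Ctgf had no count in crypts and 696 ± 239 CPM in monolayers, at least 5840-fold higher, and Spp1, osteopontin, had none in crypts and 2.63 ± 1.60 CPM in monolayers, at least 22.2-fold higher. In the other direction, Nov was at 185 ± 79.6 CPM in crypts and at 0 in all monolayers (at least 6092-fold lower), and Smoc2 fell from 22.1 ± 4.27 to 0.267 ± 0.584 CPM (log2 change -7.30, edgeR adjusted p = 5.82e-10).

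**Figure D4:**
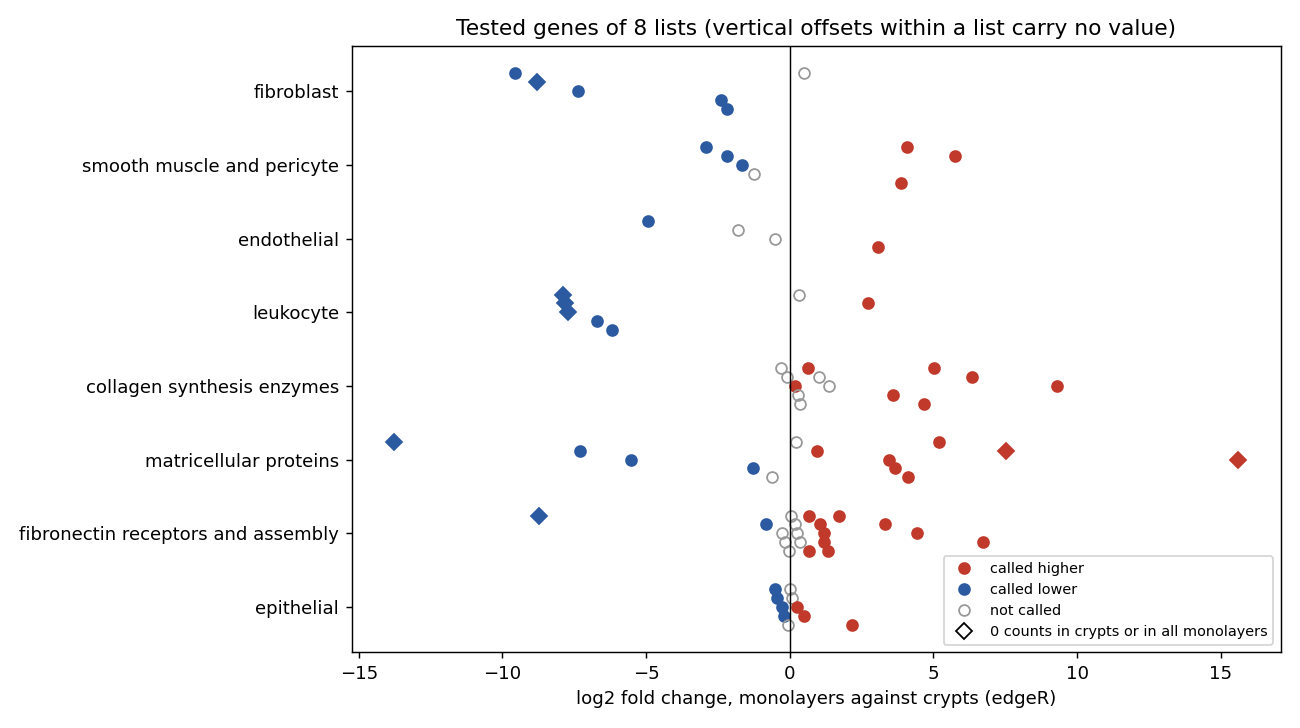
Log2 fold change of monolayers against crypts (edgeR) for the tested genes of 8 lists. Filled red and blue symbols are genes called higher and lower, open circles are genes not called, and diamonds are genes with 0 counts in a group, whose position depends on the prior count. Fibroblast and leukocyte genes lie mostly to the left, collagen synthesis enzymes and fibronectin partners mostly at or to the right of 0.

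The muscle genes were low everywhere and did not move together. Acta2, smooth muscle actin, had no count in the 3 crypt libraries, 0, 3 and 2 at day 3, none at day 4, and 5, 14 and 8 at day 5 (1.01, 1.25 and 1.39 CPM). All 3 libraries of day 5 were above the other 9. Pooled, day 5 was at least 9.77-fold higher than crypts (5.21-fold without crypts replicate 3), at least 12.6-fold higher than day 4 (7.80-fold without day 4 replicate 1 and 8.17-fold without day 4 replicate 2), and 9.17-fold higher than day 3 (3.48 to 30.5, or 14.3 without day 3 replicate 2). Acta2 failed the main filter. With the minimum count asked of 2 libraries, a filter added after seeing the data, Acta2 entered through day 5 alone. In that fit edgeR called day 5 against crypts (adjusted p = 0.00764, 56.9% of 13393 genes called) and against day 4 (0.0336, 7.21% called). It did not call day 5 against day 3 (0.0923, 19.2% called) or the 3 days together against crypts. As the filter favours a high day 5, these calls add no support to the counts. Of the 50-base windows of Acta2 transcripts, 0.326% also occur in other annotated genes, the cytoplasmic actin gene Actg1 among them.

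Myh11, the smooth muscle myosin heavy chain, had 7, 18 and 21 counts in crypts (1.40, 2.34 and 1.89 CPM), 7, 16 and 8 at day 3, 14, 5 and 10 at day 4, then 5, 6 and 2 at day 5. No monolayer library reached the lowest crypt library, the highest being 1.21 CPM. The log2 change of -1.26 ± 0.55 missed the threshold (edgeR adjusted p = 0.0541). It was called with RLE size factors (0.0486), with library totals as the scale (0.0279) and without day 5 replicate 1 (0.0428). Des, the muscle filament protein desmin, had 0, 0 and 2 counts in crypts and 3 over the monolayers (1 in day 4 replicate 2 and 2 in day 5 replicate 3), too few for any comparison.

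The label of muscle and vessel genes was checked against other markers of those cells. Of 17 smooth muscle and pericyte genes, 6 had no count in crypts: Acta2, Cnn1, Actg2, Lmod1, Myocd and Rgs5, which include the defining genes of smooth muscle. In monolayers Myocd and Rgs5 had none and Cnn1, Actg2 and Lmod1 had 3, 1 and 3 counts. The whole list nevertheless summed to 105 to 152 CPM in crypts and 422 to 517 in monolayers. Of the 7 tested, 3 (42.9%) were called higher, 3 (42.9%) lower and 1 was not called (median -1.26). Over all genes tested, 30.7% were called higher and 32.8% lower. In crypts most of the sum came from Mylk and Smtn, at 76.5 ± 21.4 and 27.6 ± 2.43 CPM. Mylk fell to 25.9 ± 11.2 CPM in monolayers and Smtn to 6.26 ± 1.95 (log2 changes -1.68 and -2.18, edgeR adjusted p = 2.98e-09 and 1.25e-08). In monolayers most of the sum came from Cald1, caldesmon, and Tpm2, a tropomyosin. Cald1 rose from 3.72 ± 1.20 to 190 ± 24.3 CPM and Tpm2 from 12.9 ± 6.24 to 226 ± 39.9 (log2 changes 5.74 and 4.08, edgeR adjusted p = 7.14e-15 and 4.68e-13). Cald1 and Tpm2 also exist in cells other than muscle. Notch3 rose as well (0.824 ± 0.870 to 10.7 ± 2.70 CPM, adjusted p = 8.74e-07), whereas the pericyte receptor gene Pdgfrb fell from 8.43 ± 1.26 to 1.13 ± 0.87 CPM (log2 change -2.92, adjusted p = 3.66e-05).

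Pecam1 had 8, 9 and 16 counts in crypts (1.60, 1.17 and 1.44 CPM), 0, 1 and 1 at day 3, 0, 3 and 0 at day 4, and none at day 5. Every crypt library was above every monolayer library, and the crypt libraries differed less in Pecam1 than in the collagens. The pooled ratio was 24.9 (9.65 to 81.7), and 54.8 without day 4 replicate 2. Its log2 change was -4.95 ± 0.95 (edgeR adjusted p = 0.000246), and -5.95 without day 4 replicate 2. At day 4 alone the change was -3.68 ± 1.17 (adjusted p = 0.0133), -6.72 without day 4 replicate 2, and not called without replicate 1 (0.0755) or 3 (0.0692). Pecam1 passed the filter on low counts through crypts alone. This fixes the direction of its calls against crypts, so they add no support to the counts.

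Other endothelial genes were mixed. Of 17 on the list, 9 had no count in crypts: Cdh5, Flt1, Tie1, Cldn5, Plvap, Emcn, Robo4, Erg and Sox17, which include the vessel cadherin. In the 9 monolayer libraries together, Tie1 had 21 counts, Cdh5 10, Erg 9, Plvap 7, Flt1 6 and Emcn 1, and Cldn5, Robo4 and Sox17 had none. The monolayers were deeper in sum. With 3 counts set for crypts, the bound on monolayers over crypts was 1.86 for Tie1, 0.884 for Cdh5 and 0.796 for Erg. It was 0.619 for Plvap and 0.530 for Flt1, and bounds under 1 show no rise. The list summed to 6.40 to 10.4 CPM in crypts and 1.70 to 8.68 in monolayers, ranges that overlap. Of the 4 tested, Pecam1 was called lower, Egfl7 higher (0.230 ± 0.324 to 1.68 ± 0.91 CPM, edgeR adjusted p = 0.00852), and Vwf and Esam were not called (adjusted p = 0.39 and 0.0896). Over all genes tested, 30.7% were called higher and 32.8% lower. Lyve1, of lymphatic vessels and some macrophages, was too low to test and had 43 counts in crypts and 24 in monolayers, a pooled ratio of 6.76 (4.01 to 11.6). Of the other untested genes, Kdr had 11 and 1, with its crypt counts all in 1 library (0.478 ± 0.827 CPM). Tek had 15 and 10, a pooled ratio of crypts over monolayers of 5.66 (2.38 to 14.1). Eng had 1 and 13, a ratio of 0.290 (0.00682 to 1.93). On the leukocyte list, which also holds cells that carry Pecam1, 5 of 7 tested genes were called lower, 1 higher and 1 was not called, with a median of -6.72, or -6.40 with genes at 0 at their bound. The 5 called lower (Ptprc, Cd52, Cd3e, Cd3g and Cd8a) had 50 to 365 counts in crypts and 0 to 20 in monolayers and passed the filter through crypts alone, which fixes their direction. Ptprc, the pan-leukocyte gene for CD45, fell from 16.9 ± 6.47 to 0.232 ± 0.235 CPM (log2 change -6.20, edgeR adjusted p = 1.19e-08), while Csf1r rose from 0.287 ± 0.096 to 2.27 ± 2.10 (2.73, 0.00689). The part of leukocytes in the Pecam1 change was not tested.

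Markers of the epithelium were high in all libraries, with 10 genes summing to 10073 to 11286 CPM in crypts and 11833 to 15375 in monolayers. Of these 10, 3 were called higher (the keratins Krt18, Krt19 and Krt8, with log2 changes of 2.15, 0.50 and 0.24) and 4 lower (Cdx2, Vil1, Epcam and Cldn7, at -0.51, -0.45, -0.26 and -0.18), with a median of -0.0290. Over all genes tested, 63.5% were called. Enteric neuron and glia genes summed to 2.73 to 5.20 CPM in crypts and 2.90 to 6.81 in monolayers, with 1 of 3 tested genes called, lower. Red blood cell genes, of which 5 of 7 were in the tables and none could be tested, summed to 0.541 to 4.60 CPM in crypts and had no count in monolayers.

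The genes whose level followed Fn1 most closely over the 9 monolayer libraries were Ppp1r3b (Pearson r = 0.991 on log2 CPM), Znfx1 (0.986), D130043K22Rik (0.986), Plcb3 (0.981) and Saa1 (0.981), of 8797 genes compared. These are the highest of many values over libraries that share 3 days, and they describe a rise from day 3 to day 5. Ppp1r3b, a glycogen-targeting subunit of protein phosphatase 1, went from 48.3 ± 1.19 CPM at day 3 to 68.6 ± 6.33 and 118 ± 11.3, with 38.8 ± 1.82 in crypts. Set beside crypts the 5 genes divided. D130043K22Rik, at 3.91 ± 1.66 CPM in crypts and 25.4 ± 5.74 at day 5, had its lowest mean in crypts, as Fn1 and Ppp1r3b did. Znfx1 was at 112 ± 55.5 in crypts and 113 ± 6.40 at day 5, Saa1, an acute phase protein, was at 180 ± 62.7 CPM in crypts and 32.0 ± 7.30 at day 5, and Plcb3, a phospholipase, at 499.7 ± 33.4 and 611 ± 27.2.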

How the data were processed

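The values used are the whole-number read counts per gene deposited by the authors, 1 table per library, before any normalization. The submitters' processing notes name CASAVA 1.9, TopHat2 and HTSeq, and both mm9 and mm10 with no role, so no coordinates stand beside counts. Neither annotation nor strand setting is given in the sources used here. Per the labels' protocols, an Ambion Micro kit was used for RNA.

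The 10 genes and all gene lists were chosen with earlier results of these data known. The test was edgeR 4.0.16 under R 4.3.3: filterByExpr (minimum count 10, 12863 genes kept), TMM factors (0.91 to 1.12), and glmQLFit and glmQLFTest in 1 fit of all 12 libraries by group. P-values were adjusted over all genes tested (Benjamini-Hochberg) and called under 0.05. The same script was checked on simulated data. DESeq2 1.42.0, other scalings and filters, fits of only the groups compared, and fits leaving out each library were alternatives. Genes at 0 in a group have bounds against 3 counts pooled over the group, which, like the intervals, cover counting error only. Lengths are exon unions of GENCODE M21. Beside the 10 genes, the text names from each list up to 4 called genes with a mean of at least 1 CPM, largest change first. Fbln1, Col6a2, Thy1, Mfap5, Pdgfra, Mylk, Smtn, Lyve1, Itga5, Serpinh1, Vwf, Esam, Kdr, Tek, Eng, Krt8, Epcam, Cldn7, Cd52, Cd3e, Cd3g, Cd8a, the transition regulators and the marker genes listed at 0 were added after their values were seen. The untested genes of collagen processing were likewise added after their values were seen. Genes like Fn1 needed a mean of at least 10 CPM. Summary lines that name no gene, with 45.6 to 49.0% of crypt reads and 38.7 to 42.8% of monolayer reads in no gene and 14.2 to 19.2% of reads without a unique alignment, stayed out of library sizes. Same-numbered libraries did not deviate together (18 pairs, r = -0.0336 to 0.0585). This cannot exclude that they share a mouse or culture, so pairing by number remains unknown, and the main fit did not use it.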

Additional observations from a re-analysis of the deposited data

Results flagged for a closer look

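Vim differed between monolayer days: its fitted log2 fold change from day 4 to day 5 was -6.29 in the edgeR test of the difference itself (adjusted p = 0.0456, 0 of 3 libraries with a count at day 5 against 3 of 3 at day 4). The fit sets this size through its prior count, and the bound from the counts was at least 6.92-fold lower. As described, the call was lost in several fits that left out a library, and also with the replicate block.

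Fn1 also differed between monolayer days, with a log2 fold change of 1.25 from day 3 to day 5 (edgeR adjusted p = 0.00911) and all 3 libraries of day 5 above all 3 of day 3. DESeq2 did not call this change.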

How the results depend on the processing

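Where at least 1 group held more than 3 counts, no log2 change of the 5 tested genes turned its direction under the alternatives run. Changes of Col3a1 and Pecam1 between monolayer days, with at most 3 counts in both groups, were left out of this check. The pooled ratio of Myh11 at day 4 to day 3, 1.14 with all libraries, fell to 0.948 when day 4 replicate 1 was left out and to 0.988 when day 3 replicate 3 was. The number of the 10 genes called in monolayers against crypts rose from 4 to 7 with no filter on low counts, with the minimum count in 2 libraries (chosen after seeing the data) and with DESeq2, where Col1a1, Col1a2 and Sparc entered. With that minimum it was 7 at day 3 and 7 at day 4, and at day 5 it was 8 under all 3 of those settings, with Acta2. Between day 4 and day 3 it went from 0 to 1 (Fn1) with no filter or with only the groups compared. Between day 5 and day 4 it went from 1 to 2 with no filter (Fn1, Vim) and with the minimum in 2 libraries (Acta2, Vim). Between day 5 and day 3 it went from 1 to 2 with no filter (Fn1, Vim) and with only the groups compared (Acta2, Fn1), and to 0 with DESeq2. With each library left out, and the filter applied again with a minimum in 2 libraries, the number ranged from 4 to 8 for monolayers, 4 to 7 for day 3, 4 to 7 for day 4 and 5 to 8 for day 5 against crypts. Between days it ranged from 0 to 1 (day 4 against day 3), 0 to 3 (day 5 against day 4) and 1 to 1 (day 5 against day 3). With the replicate block the count between day 5 and day 4 fell to 0, since Vim was at -6.11 (edgeR adjusted p = 0.0602), and all genes called in monolayers against crypts went from 8163 to 7996. The block changed no other call among the 10 genes. With no filter, edgeR gave every gene the spread of the trend, and Pecam1 missed the threshold at day 3 (adjusted p = 0.0524) and day 4 (0.102). Apart from the filters and left-out libraries, which change the genes and samples tested, the cause was not tested. Depth limits Des, Acta2, Col1a1, Col1a2, Col3a1, Sparc, Vim and Pecam1, which had at most 3 counts in at least 1 group.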
